A study of Mus musculus with 9 samples.

Results

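The genes described here are the solute carriers that were clearly measured in 3 sorted mouse myeloid populations, 81 genes in all. They were chosen among 334 genes whose symbol starts with Slc, a family number, the letter a and a member number, and which had a probe set of their own on the array. A gene became a member when its mean level reached at least 7 on the log2 scale in at least 1 population, and the remaining 253 stayed below 7 in every population. The iron exporter gene Slc40a1 was left out of both counts. For the 9 members with several probe sets the brightest was used. Since the levels themselves chose the members, they are given as a description. The array table covered 19938 genes, of which 5385 reached the same level.

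Solute carriers are membrane proteins that move small molecules along a gradient, against another solute or together with an ion. They bring sugars and amino acids into the cell, return the products of digestion from the lysosome to the cytosol, and exchange metabolites across the inner mitochondrial membrane. In macrophages, which take up and digest whole cells, lysosomal carriers of amino acids, nucleosides and heme are known as the exits for the digested material.

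Compared were TZM, the macrophages of the T cell zone in lymph nodes, with microglia, the resident macrophages of the brain, and with CD8a+DC, a dendritic cell population known for cross-presentation. All came from CX3CR1 gfp+/- mice, in which a copy of the fractalkine receptor gene carries a green fluorescent protein (GFP) reporter, so the reporter background was common to the 3 populations. By the labels' sorting scheme, TZM were gated as MertK+ CD169- cells that carried CD11b and much GFP, microglia as CD45+ cells with CD11b and much GFP, and the DC as CD64-, CD11c-high, MHC class II-high and CD8+. The sample fields place the DC in the lymph node and the sorting scheme places them in the spleen. Each population was measured on 3 arrays labelled as biological replicates. Age, sex and the number of mice behind an array are not given in the sources used here. The p-values therefore set a difference against the spread between these arrays, estimated over the 3 populations together. No solute carrier served as a sort marker.

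Array medians over all genes ran from 4.90 to 5.02. The defining markers followed the labels. All 10 macrophage markers were higher in TZM than in CD8a+DC, and against microglia 2 were higher and 2 lower. All 9 measured microglia markers were lower in TZM than in microglia. All 10 DC markers were lower in microglia than in CD8a+DC, and 9 of them were lower in TZM. Mertk, Fcgr1 (for CD64), Cx3cr1 and Cd8a on these lists belong to the sorting scheme, so their part was largely fixed by the sort. Among markers of other cells, the summed log2 level of 6 salivary gland genes was 38.9, 43 and 35 in the TZM arrays, against 21.8 to 22 in microglia and 22 to 23 in CD8a+DC. The sum of 6 neutrophil genes was 28.7, 36 and 32.4 in TZM, against 24.6 to 25.2 in microglia and 25.3 to 26.1 in CD8a+DC, with Ly6g at 3.13 to 3.24 in TZM. The sum of 6 choroid plexus genes was 35.4, 26.9 and 34.4 in the microglia arrays, against 25.2 to 25.9 in TZM and 25.1 to 25.7 in CD8a+DC. Few genes carried these sums: Bpifa2, Smr3a and Amy1 were the salivary gland genes called higher in TZM, S100a8 and S100a9 the neutrophil genes, and Ttr, at 12.15, 5.48 and 11.83 in the microglia arrays, was the choroid plexus gene called higher in microglia. TZM replicate 2, highest on the salivary gland and neutrophil lists, also held the lowest of the 3 TZM values for 51 of the 81 solute carriers (63%), while it did so for 40.3% of the 5385 genes that reached the level of 7. The part of these cells in the solute carrier levels was not tested. In bulk RNA of sorted cells, less RNA per cell and fewer cells that carry a transcript cannot be told apart.

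Sequence upstream of the transcription start was read from RefSeq (build GRCm38.p6) for 63 of the 81 members, in 82 entries. The 250 bases before the start are shown for 5 genes that stand for the main patterns described below. Slc7a7 and Slc36a1 were higher in both macrophage populations than in CD8a+DC, Slc20a1 was highest in TZM, Slc2a5 in microglia and Slc25a20 in CD8a+DC. Capitals mark matches, on either strand, to GGAAGT (the core of the site of the myeloid factor PU.1), CACGTG (the E-box that lysosomal genes often carry), CCAAT and TGATGNAA (a C/EBP-ATF element).
Slc7a7: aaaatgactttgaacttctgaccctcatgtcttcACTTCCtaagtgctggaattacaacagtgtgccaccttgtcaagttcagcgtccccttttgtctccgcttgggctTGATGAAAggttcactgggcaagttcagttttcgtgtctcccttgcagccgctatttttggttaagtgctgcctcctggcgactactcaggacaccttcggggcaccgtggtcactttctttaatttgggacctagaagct
Slc36a1: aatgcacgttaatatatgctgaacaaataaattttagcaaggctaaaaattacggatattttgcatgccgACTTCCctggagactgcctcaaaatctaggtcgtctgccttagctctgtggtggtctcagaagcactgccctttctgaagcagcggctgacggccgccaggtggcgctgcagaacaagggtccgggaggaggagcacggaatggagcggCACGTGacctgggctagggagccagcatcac
Slc20a1: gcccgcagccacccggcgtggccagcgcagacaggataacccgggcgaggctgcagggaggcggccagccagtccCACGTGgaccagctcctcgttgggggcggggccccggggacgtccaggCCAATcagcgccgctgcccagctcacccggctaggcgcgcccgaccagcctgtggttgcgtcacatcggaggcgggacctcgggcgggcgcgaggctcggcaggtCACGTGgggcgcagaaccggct
Slc2a5: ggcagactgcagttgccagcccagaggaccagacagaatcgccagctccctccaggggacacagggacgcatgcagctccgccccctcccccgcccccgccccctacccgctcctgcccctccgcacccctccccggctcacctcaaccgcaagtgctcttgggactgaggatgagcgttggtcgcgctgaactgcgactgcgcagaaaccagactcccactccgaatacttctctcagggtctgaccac
Slc25a20: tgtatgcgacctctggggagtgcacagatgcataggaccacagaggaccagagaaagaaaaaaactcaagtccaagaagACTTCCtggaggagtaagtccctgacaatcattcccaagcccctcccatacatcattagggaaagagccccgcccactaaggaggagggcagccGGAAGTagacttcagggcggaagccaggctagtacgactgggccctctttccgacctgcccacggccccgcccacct
These windows lie at chr14:54417945-54418194 (minus strand) for the first of the 5 entries of Slc7a7, at chr11:55204090-55204339 (plus) for Slc36a1, at chr2:129198523-129198772 (plus) for the first of the 2 entries of Slc20a1, at chr4:150119094-150119343 (plus) for Slc2a5 and at chr9:108661886-108662135 (plus) for Slc25a20. Slc36a1 held CACGTG 31 bases before the start, and Slc20a1 held it 175 and 22 bases before. GGAAGT on either strand began 216 bases before the start of Slc7a7, 180 before that of Slc36a1, and 171 and 77 before that of Slc25a20, while the Slc2a5 window held none of these motifs. TGATGNAA began 141 bases before the start of Slc7a7, and CCAAT 127 before that of Slc20a1. No matches overlapped in these windows. Over all members' entries, CACGTG was in 12.2% against 6.02% of all 32851 promoter entries, GGAAGT in 19.5% against 19.7%, CCAAT in 30.5% against 33.8% and TGATGNAA in 6.1% against 3.45%. The median number of CpG dinucleotides was 16 in members' entries and 6 in all entries, and CACGTG itself holds a CpG. Members were chosen by their level, while the full set of entries was not. Shares among other genes of the members' level or CpG number were not worked out, so whether CACGTG marks solute carriers was not tested. A match describes the letters and is not evidence of a site in use.

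The members were spread over the populations as follows. At 7 or more in all populations were 28 genes, in TZM and microglia but not CD8a+DC 18, in microglia and CD8a+DC but not TZM 5, and in TZM and CD8a+DC but not microglia 3. TZM alone passed 10 genes, microglia alone 7 and CD8a+DC alone 10. The highest mean was found in TZM for 31 members, in microglia for 29 and in CD8a+DC for 21. Just inside the threshold were Slc7a6 (7.01 in CD8a+DC), Slc37a1 (7.05 in CD8a+DC), Slc20a2 (7.07 in CD8a+DC) and Slc38a7 (7.08 in microglia). Just outside were Slc4a1ap (6.95 in CD8a+DC), the urea transporter Slc14a1 (6.94 in CD8a+DC), the iron and manganese importer Slc11a2 (6.94 in TZM) and the folate carrier Slc19a1 (6.89 in TZM and in microglia). Replicates lay close together, with a median SD of 0.25 in TZM, 0.14 in microglia and 0.14 in CD8a+DC, and the widest spread was an SD of 0.71, for Slc36a1 and Slc48a1 in TZM.

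A difference was called at an adjusted p under 0.05 in limma's fit over all genes together with a log2 fold change of at least 1 in size. Of the 81 members, 26 were higher and 8 lower in TZM than in CD8a+DC, where 4.71% of all genes were called higher and 4.03% lower, and 13.6% and 10.6% of the genes that reached the level of 7. Between TZM and microglia 13 members were higher and 10 lower in TZM, beside 4.25% and 3.40% of all genes and 12.3% and 9.21% of genes at that level. Between microglia and CD8a+DC 21 members were higher and 8 lower in microglia, beside 5.15% and 6.01% of all genes and 14.1% and 17.1% at that level. A gene that passed through 1 population alone was likely to differ, so these counts describe the members and support nothing. Among the 55 members whose mean over all 9 arrays was 7 or more, a level set over the populations together, 15 were higher and 4 lower in TZM than in CD8a+DC, against 10.9% and 7.67% of the 4239 genes of that kind. For TZM against microglia the counts of that group were 6 and 7, beside 10.2% and 7.53%, and for microglia against CD8a+DC they were 12 and 1, beside 11.6% and 14.9%. Median log2 fold changes over the 81 members were 0.44 for TZM against CD8a+DC, 0.04 for TZM against microglia and 0.30 for microglia against CD8a+DC, while over all genes they were 0.02, 0.01 and 0.01. In every called comparison of a member the arrays of the compared populations did not overlap, which does not set the called members apart. Of members not called, 29 of 47 did not overlap for TZM against CD8a+DC. For TZM against microglia it was 30 of 58, and for microglia against CD8a+DC 36 of 52. The share over all genes was not worked out. The comparisons share arrays with each other. Counted in either direction, the called shares of all genes were 8.74% for TZM against CD8a+DC, 7.65% for TZM against microglia and 11.2% for microglia against CD8a+DC. Among genes that reached 7 in any population they were 24.2%, 21.5% and 31.2% in that order, and among genes with a mean of 7 or more over all arrays 18.6%, 17.7% and 26.5%.

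**Figure D1:**
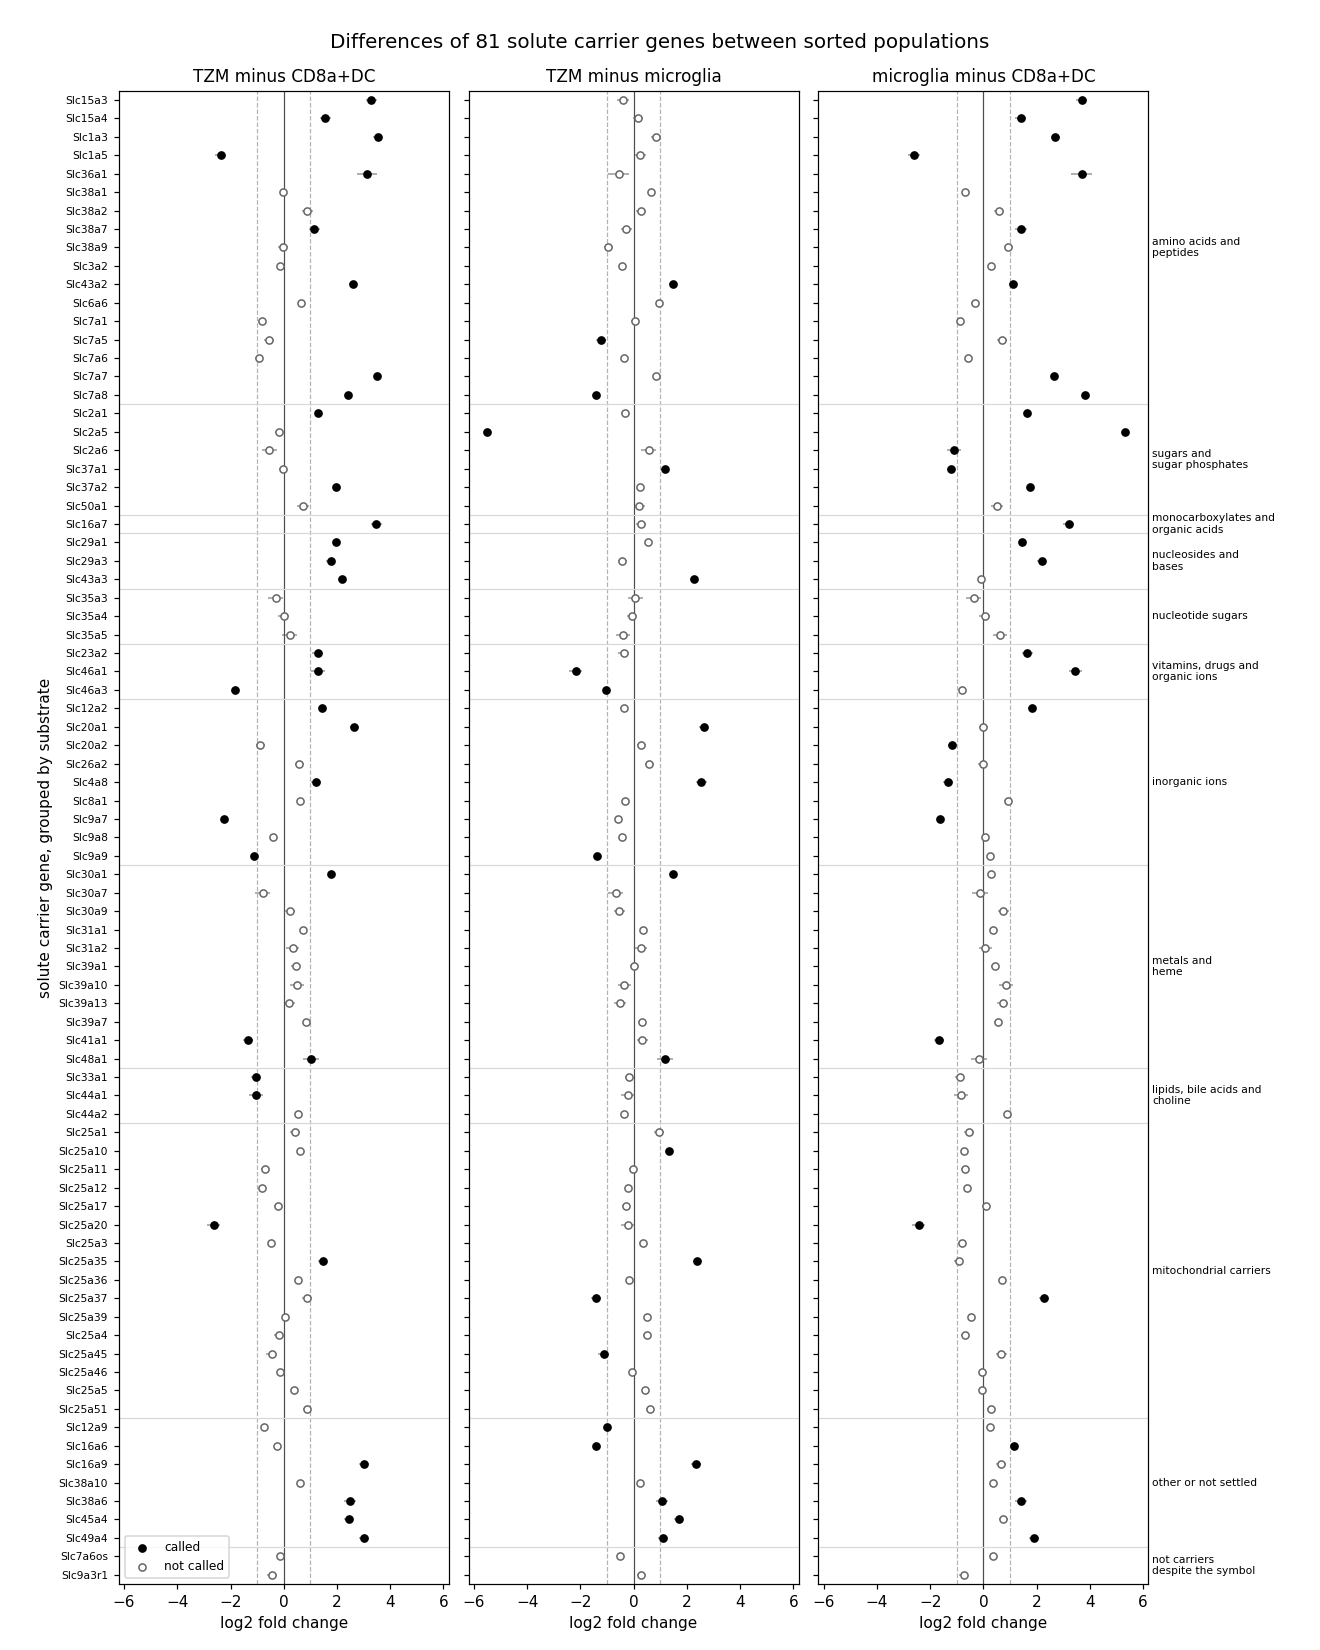
Log2 fold changes (horizontal axis) of the 81 solute carrier genes, grouped by substrate, for TZM minus CD8a+DC, TZM minus microglia and microglia minus CD8a+DC; points are limma estimates from 3 arrays per population, bars are standard errors, filled points are called and dashed lines mark a log2 fold change of 1 in size. The filled points lie mostly to the right in both panels against CD8a+DC (26 higher and 8 lower, 21 higher and 8 lower), and the farthest point of all is Slc2a5, at -5.51 and 5.32.

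Amino acid and peptide carriers formed the largest class, with 17 members. In TZM 8 were higher and 1 lower than in CD8a+DC, in microglia likewise 8 and 1, and between TZM and microglia 1 was higher and 2 were lower in TZM. Among the genes higher in the macrophage populations are those of plasma membrane exchangers, a uniporter, a glutamate transporter and lysosomal exporters.

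Slc7a7 encodes y+LAT1, the light chain of an exchanger that exports cationic amino acids such as arginine in return for neutral ones. It was at 10.36, 9.97 and 10.22 in TZM, 9.32, 9.41 and 9.34 in microglia, and 6.65, 6.75 and 6.68 in CD8a+DC. The populations stood in that order without overlap. TZM were above CD8a+DC by 3.49 (SE 0.10, adjusted p = 9.2e-08), which is 11.2-fold, and microglia by 2.66 (SE 0.10, adjusted p = 2.2e-07). Between TZM and microglia the log2 fold change was 0.83 (adjusted p = 0.00042), short of the minimum of 1.

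Slc7a8, the light chain LAT2 for neutral amino acids, had the reverse order of the macrophage populations. Its levels were 8.52, 8.29 and 8.45 in TZM, 9.84, 9.70 and 9.96 in microglia, and 6.04, 6.09 and 5.89 in CD8a+DC. TZM were lower than microglia, at -1.41 (SE 0.09, adjusted p = 1.4e-05), and higher than CD8a+DC by 2.41 (adjusted p = 4.8e-07), and microglia were higher than CD8a+DC by 3.83 (14.2-fold, adjusted p = 2.1e-08). Both exchangers reach the membrane only with the heavy chain CD98, encoded by Slc3a2. Slc3a2 itself differed little, with means of 9.85 ± 0.09 in TZM, 10.28 ± 0.05 in microglia and 9.98 ± 0.05 in CD8a+DC (SD, n = 3 each).

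Another light chain of CD98 is LAT1, the importer of leucine and other large neutral amino acids, encoded by Slc7a5. It was at 7.38, 6.85 and 7.68 in TZM and at 8.61, 8.36 and 8.68 in microglia, so that every TZM array lay below every microglia array (log2 fold change -1.24, SE 0.19, adjusted p = 0.0018). In CD8a+DC it averaged 7.85 ± 0.06, and neither difference from these cells was called. The light chain gene Slc7a6, for y+LAT2, was at 6.06 ± 0.22 in TZM, 6.42 ± 0.09 in microglia and 7.01 ± 0.19 in CD8a+DC, and the arginine importer Slc7a1 (CAT1) at 6.26 ± 0.22, 6.22 ± 0.09 and 7.08 ± 0.18 in the same order. Neither was called: the log2 fold changes of TZM against CD8a+DC were -0.94 for Slc7a6 and -0.82 for Slc7a1. For Slc7a6 this value passed the minimum without TZM replicate 3 (-1.02, adjusted p = 0.0023) and without CD8a+DC replicate 3 (-1.02, adjusted p = 0.0026). The uniporter LAT4 for branched-chain amino acids and phenylalanine, encoded by Slc43a2, was the only amino acid carrier called higher in TZM than in microglia. It stood at 8.61, 8.46 and 8.82 in TZM, 7.12, 7.07 and 7.21 in microglia, and 5.92, 6.36 and 5.82 in CD8a+DC, with log2 fold changes of 1.49 (adjusted p = 0.00015) for TZM against microglia and 2.59 (adjusted p = 4.3e-06) for TZM against CD8a+DC. Microglia were above CD8a+DC by 1.10 (adjusted p = 0.0006), and without CD8a+DC replicate 3 by 0.99, under the minimum.

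Transporters that use the sodium gradient went in opposite directions. Slc1a3 encodes the glutamate transporter GLAST, known in brain mainly from astrocytes. It was at 8.35, 7.80 and 8.24 in TZM, 7.22, 7.22 and 7.45 in microglia, and 4.71, 4.37 and 4.72 in CD8a+DC. The TZM level lay above that of microglia by 0.83 (adjusted p = 0.0064), which was not called. Both lay far above CD8a+DC, with log2 fold changes of 3.53 (SE 0.16, adjusted p = 1.1e-06) for TZM and 2.70 (SE 0.16, adjusted p = 3.8e-06) for microglia. Of the other 5 genes on the astrocyte list, Gfap, Aqp4 and Gja1 were not called in any comparison, with Gfap at 3.70 to 3.89 and Aqp4 at 3.51 to 3.80 over all 9 arrays. Slc1a2, the other main glutamate transporter gene of astrocytes, averaged 5.21 in TZM, 4.11 in microglia and 4.18 in CD8a+DC and was called higher in TZM than in both, by 1.09 over microglia and 1.03 over CD8a+DC. Aldoc was called lower than in CD8a+DC in TZM (-1.41) and in microglia (-1.43). The part of astrocyte RNA in the Slc1a3 levels was not tested. Slc1a5 encodes ASCT2, which carries glutamine and other small neutral amino acids, and was the amino acid carrier called lower in both macrophage populations. It was at 5.63, 5.50 and 6.25 in TZM, 5.41, 5.44 and 5.82 in microglia, and 8.40, 8.08 and 8.01 in CD8a+DC. Its log2 fold change was -2.37 (SE 0.21, adjusted p = 6.3e-05) for TZM and -2.61 (SE 0.21, adjusted p = 2.5e-05) for microglia against CD8a+DC.

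The glutamine carriers SNAT1 and SNAT2, encoded by Slc38a1 and Slc38a2, were not called in any comparison. Slc38a1 averaged 8.67 ± 0.11 in TZM, 8.0 ± 0.11 in microglia and 8.69 ± 0.13 in CD8a+DC, and Slc38a2 9.61 ± 0.40, 9.32 ± 0.17 and 8.72 ± 0.13. Without TZM replicate 2, Slc38a2 was higher in TZM than in CD8a+DC by 1.12 (adjusted p = 0.00032). The taurine transporter gene Slc6a6 averaged 9.89 ± 0.31 in TZM, 8.92 ± 0.10 in microglia and 9.22 ± 0.01 in CD8a+DC. Its difference of 0.97 between TZM and microglia (adjusted p = 0.0013) fell just short of the minimum and passed it without TZM replicate 2 (1.15) and without microglia replicate 1 (1.01).

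The amino acid and peptide carriers of the lysosomal membrane are described together, and they did not all run the same way. Slc15a3 and Slc15a4 encode transporters of histidine and small peptides (PHT2 and PHT1), of which Slc15a4 is known to be needed for signalling by endosomal Toll-like receptors. Slc15a3 was at 9.69, 9.33 and 9.94 in TZM, 10.40, 9.56 and 10.20 in microglia, and 6.47, 6.32 and 6.31 in CD8a+DC. TZM and microglia overlapped (log2 fold change -0.40, adjusted p = 0.30), and both were above CD8a+DC, TZM by 3.29 (SE 0.22, adjusted p = 1.3e-05) and microglia by 3.69 (adjusted p = 4.5e-06). Slc15a4 was likewise higher in both macrophage populations, by less, with means of 8.35 ± 0.35, 8.19 ± 0.31 and 6.79 ± 0.07 in TZM, microglia and CD8a+DC and log2 fold changes of 1.56 and 1.40 for TZM and microglia against CD8a+DC (adjusted p = 0.00053 and 0.00075).

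Slc36a1 encodes PAT1, which lets small neutral amino acids leave the lysosome together with protons. It was at 8.35, 7.11 and 8.32 in TZM, 8.47, 8.64 and 8.34 in microglia, and 4.95, 4.09 and 5.34 in CD8a+DC. Replicate 2 was the lowest array in TZM and in CD8a+DC, and every macrophage array still lay above every CD8a+DC array. The differences from CD8a+DC were 3.13 (SE 0.39, adjusted p = 0.00053) for TZM and 3.69 (SE 0.39, adjusted p = 0.00015) for microglia. The glutamine and asparagine exporter gene Slc38a7 was higher in TZM than in CD8a+DC by 1.15 (adjusted p = 0.0061) and in microglia by 1.42 (adjusted p = 0.0014), with means of 6.80 ± 0.49, 7.08 ± 0.18 and 5.66 ± 0.10 in TZM, microglia and CD8a+DC. The TZM call ended without TZM replicate 3 (0.97). Slc38a9 encodes the lysosomal arginine sensor that acts on the growth kinase complex mTORC1, and here microglia stood apart. It averaged 6.81 ± 0.22 in TZM, 7.77 ± 0.09 in microglia and 6.84 ± 0.33 in CD8a+DC. The log2 fold change of TZM against microglia was -0.96 (adjusted p = 0.0042), not called, and became -1.03 with quantile normalization, -1.08 with the mean of its probe sets and -1.05 without TZM replicate 3, each past the minimum. Microglia against CD8a+DC was 0.93 (adjusted p = 0.0036), and 1.06 without CD8a+DC replicate 1.

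**Figure D2:**
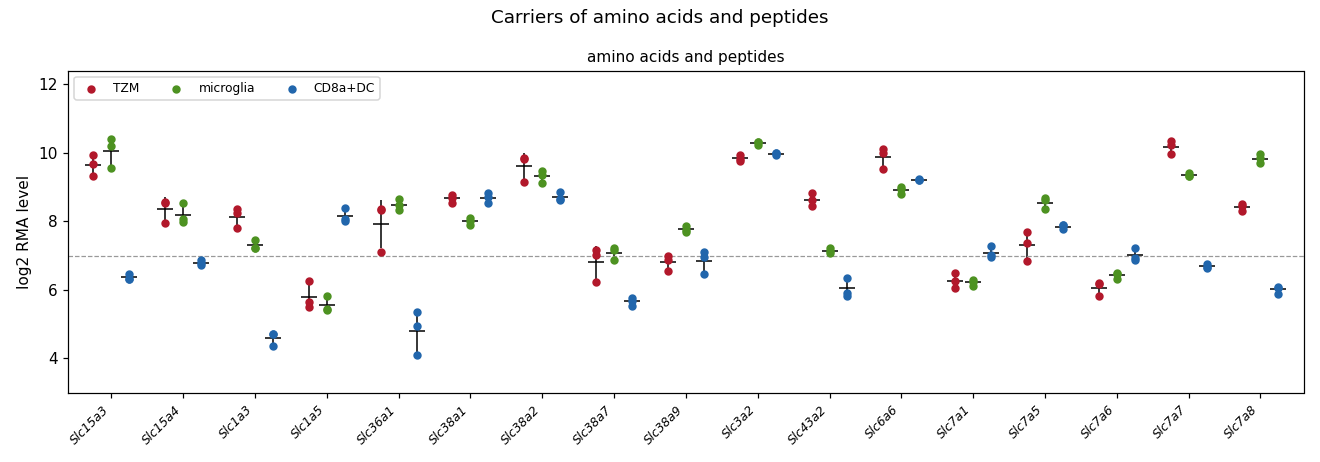
Log2 RMA levels (vertical axis) of the 17 amino acid and peptide carriers in each of the 3 TZM, 3 microglia and 3 CD8a+DC arrays; black marks are means and bars SDs, and the dashed line is the level of 7. For Slc7a7, Slc15a3, Slc36a1 and Slc1a3 all macrophage arrays lie above all CD8a+DC arrays, and for Slc1a5 all lie below.

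Among the 6 carriers of sugars and sugar phosphates, TZM were higher than CD8a+DC for 2 genes, and higher than microglia for 1 and lower for 1. In microglia 3 were higher and 2 lower than in CD8a+DC. The widest difference of all members lay here. Slc2a5, the gene of the fructose transporter GLUT5, was at 3.92, 4.01 and 4.01 in TZM, 9.62, 9.63 and 9.22 in microglia, and 4.04, 4.39 and 4.07 in CD8a+DC. Levels in TZM and CD8a+DC were near the low end of the array scale, where a log2 difference tends to be understated. TZM were lower than microglia at -5.51 (SE 0.13, adjusted p = 4.5e-08), which is 45.5-fold, and microglia were higher than CD8a+DC by 5.32 (SE 0.13, adjusted p = 2.1e-08). Fructokinase, encoded by Khk, takes up the first step after fructose entry. It averaged 5.68 in TZM, 6.94 in microglia and 7.11 in CD8a+DC, and was called lower in TZM than in either other population.

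Slc2a1 encodes GLUT1, the glucose transporter of most growing cells. It stood at 7.87, 7.81 and 7.94 in TZM, 7.99, 8.27 and 8.37 in microglia, and 6.64, 6.70 and 6.37 in CD8a+DC. Both macrophage populations lay above CD8a+DC, TZM by 1.3 (SE 0.12, adjusted p = 8.1e-05) and microglia by 1.64 (SE 0.12, adjusted p = 1.4e-05), while TZM and microglia differed by -0.34 (adjusted p = 0.09). Slc2a6, for the lysosome-associated GLUT6, ran the other way, with 6.71 ± 0.41 in TZM, 6.15 ± 0.02 in microglia and 7.25 ± 0.53 in CD8a+DC. Microglia were lower than CD8a+DC at -1.10 (adjusted p = 0.018), and leaving out CD8a+DC replicate 2 or any single microglia array ended that call. The exchangers of sugar phosphates for phosphate in the endoplasmic reticulum differed between each other. Slc37a2 was at 7.53, 7.36 and 7.45 in TZM, 7.14, 7.23 and 7.27 in microglia, and 5.32, 5.59 and 5.51 in CD8a+DC, and was higher by 1.97 in TZM (adjusted p = 9.1e-07) and by 1.74 in microglia (adjusted p = 1.3e-06) than in CD8a+DC. Slc37a1 averaged 7.03 ± 0.20 in TZM, 5.85 ± 0.13 in microglia and 7.05 ± 0.27 in CD8a+DC. It was higher in TZM than in microglia by 1.18 (adjusted p = 0.0007) and lower in microglia than in CD8a+DC at -1.20 (adjusted p = 0.00042). The sugar transporter gene Slc50a1 averaged 7.72 ± 0.09, 7.5 ± 0.44 and 7.0 ± 0.26 in TZM, microglia and CD8a+DC and was not called.

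The monocarboxylate class held 1 member. Slc16a7 encodes MCT2, a high-affinity carrier of lactate, pyruvate and ketone bodies. It was at 7.30, 7.59 and 6.83 in TZM, 7.01, 6.71 and 7.16 in microglia, and 3.78, 3.57 and 3.92 in CD8a+DC. TZM and microglia overlapped, and each was above CD8a+DC, TZM by 3.48 (SE 0.20, adjusted p = 4.4e-06) and microglia by 3.20 (SE 0.20, adjusted p = 5.1e-06). Lactate dehydrogenase B, encoded by Ldhb, favours the conversion of lactate to pyruvate. It averaged 8.08 in TZM, 9.83 in microglia and 4.62 in CD8a+DC, and was called higher in TZM than in CD8a+DC by 3.46, higher in microglia than in CD8a+DC by 5.21 and lower in TZM than in microglia at -1.75.

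The 3 carriers of nucleosides and bases were all higher in TZM than in CD8a+DC, and 2 of them were higher in microglia than in CD8a+DC. Slc29a1 encodes ENT1, a nucleoside transporter of the plasma membrane, and Slc29a3 encodes ENT3, its lysosomal relative. Slc29a1 was at 7.75, 7.61 and 7.77 in TZM, 7.09, 7.15 and 7.29 in microglia, and 5.87, 5.86 and 5.49 in CD8a+DC, with TZM on top in every array. TZM were above CD8a+DC by 1.97 (SE 0.11, adjusted p = 4.5e-06) and microglia by 1.44 (adjusted p = 2.3e-05). The difference of 0.54 between TZM and microglia (adjusted p = 0.01) was not called. Slc29a3 was at 9.60, 8.85 and 9.48 in TZM, 9.7, 9.72 and 9.81 in microglia, and 7.5, 7.55 and 7.58 in CD8a+DC. Here microglia were on top, at 2.20 above CD8a+DC (adjusted p = 2.0e-05), and TZM were 1.77 above CD8a+DC (adjusted p = 0.00011). The difference of -0.43 between TZM and microglia (adjusted p = 0.13) was not called. The purine base transporter gene Slc43a3 set TZM apart, with 8.26, 8.33 and 8.73 in TZM, 6.05, 6.26 and 6.22 in microglia, and 6.39, 6.10 and 6.28 in CD8a+DC. It was higher in TZM than in microglia by 2.26 (SE 0.13, adjusted p = 7.3e-06) and than in CD8a+DC by 2.18 (adjusted p = 7.0e-06), and microglia and CD8a+DC overlapped. Adenosine deaminase, encoded by Ada, converts adenosine to inosine and was also called higher in TZM, by 1.98 over microglia and 2.64 over CD8a+DC. Slc35a3, Slc35a4 and Slc35a5, of a Golgi family of nucleotide sugar carriers, had log2 fold changes from -0.41 to 0.63 over the 3 comparisons, with overlapping arrays in all of them.

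Of 3 carriers of vitamins and related substrates, 2 were higher and 1 lower in TZM than in CD8a+DC, 2 were lower in TZM than in microglia, and 2 were higher in microglia than in CD8a+DC. Slc46a1 encodes the proton-coupled folate transporter, which also carries heme. It was at 6.60, 6.19 and 6.51 in TZM, 8.68, 8.59 and 8.58 in microglia, and 4.54, 5.27 and 5.66 in CD8a+DC. Microglia were above CD8a+DC by 3.46 (SE 0.25, 11-fold, adjusted p = 1.4e-05), and TZM lay between, at -2.18 against microglia (adjusted p = 0.00036) and 1.28 against CD8a+DC (adjusted p = 0.0067). The last call ended without CD8a+DC replicate 1 (0.97). Slc46a3, for a lysosomal transporter of the same family, ran in another order, at 7.61, 7.40 and 7.84 in TZM, 8.65, 8.63 and 8.65 in microglia, and 9.52, 9.23 and 9.60 in CD8a+DC. TZM were lowest, with log2 fold changes of -1.03 against microglia (adjusted p = 0.00058; -0.92 without TZM replicate 2, under the minimum) and -1.84 against CD8a+DC (adjusted p = 1.5e-05). Slc23a2, the gene of the vitamin C transporter SVCT2, averaged 8.18 ± 0.38 in TZM, 8.55 ± 0.28 in microglia and 6.90 ± 0.20 in CD8a+DC, and was higher than in CD8a+DC by 1.28 in TZM (adjusted p = 0.0027) and 1.65 in microglia (adjusted p = 0.00047).

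**Figure D3:**
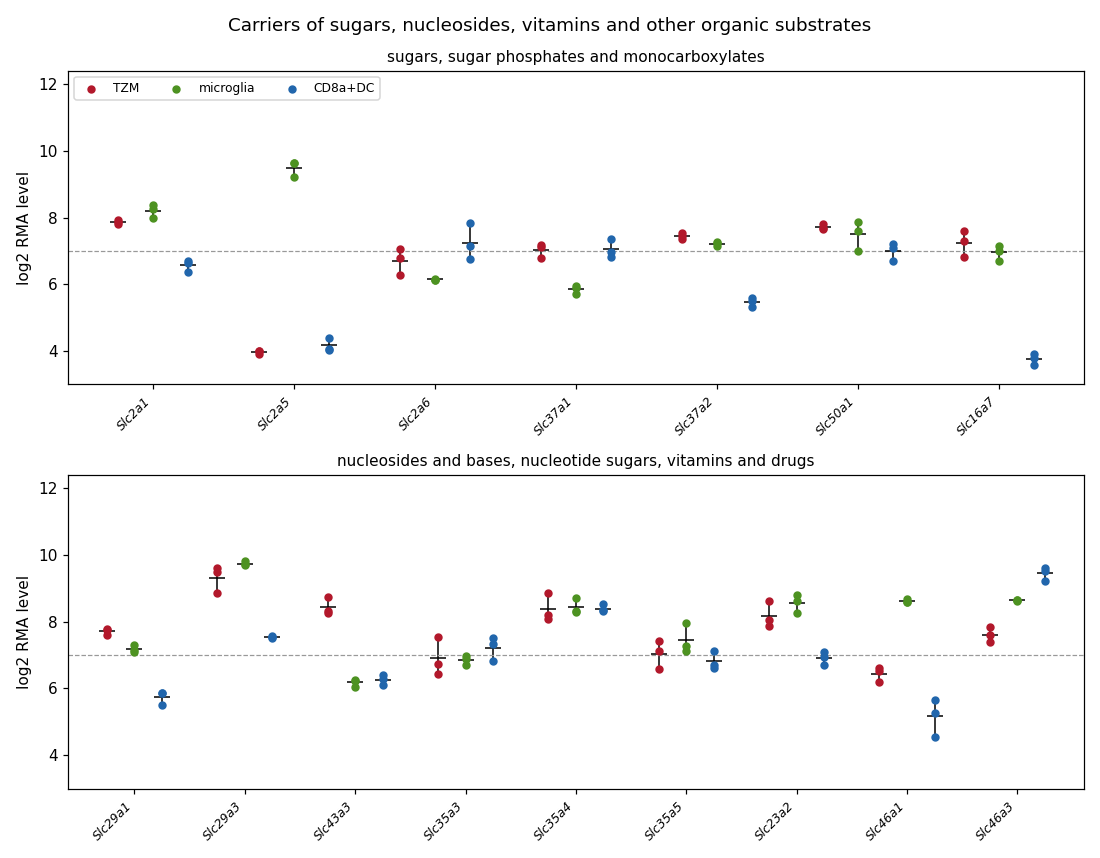
Log2 RMA levels (vertical axis) in each TZM, microglia and CD8a+DC array, with black means and SD bars (n = 3) and a dashed line at 7, for carriers of sugars, sugar phosphates and monocarboxylates (top) and of nucleosides, bases, nucleotide sugars, vitamins and drugs (bottom). Slc2a5 is at 9.22 or more in microglia and at 4.39 or less elsewhere, and Slc43a3 is at 8.26 or more in TZM and at 6.39 or less elsewhere.

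Of 9 carriers of inorganic ions, 3 were higher and 2 lower in TZM than in CD8a+DC, 2 higher and 1 lower in TZM than in microglia, and 1 higher and 3 lower in microglia than in CD8a+DC. Slc20a1 encodes PiT1, an importer of inorganic phosphate with sodium. It was at 10.41, 9.89 and 10.38 in TZM, 7.77, 7.42 and 7.57 in microglia, and 7.82, 7.39 and 7.54 in CD8a+DC. The TZM arrays stood apart, 6.24-fold above microglia (log2 fold change 2.64, SE 0.17, adjusted p = 1.1e-05) and 6.26-fold above CD8a+DC (2.65, SE 0.17, adjusted p = 8.4e-06), while microglia and CD8a+DC overlapped. Its relative Slc20a2, for PiT2, averaged 6.19 ± 0.35 in TZM, 5.90 ± 0.20 in microglia and 7.07 ± 0.05 in CD8a+DC. Microglia were lower than CD8a+DC at -1.17 (adjusted p = 0.00099), and the TZM difference of -0.88 was not called, but was without TZM replicate 1 (-1.02, adjusted p = 0.0052).

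The bicarbonate transporter gene Slc4a8 was at 7.10, 7.15 and 7.20 in TZM, 4.63, 5.09 and 4.11 in microglia, and 5.97, 5.88 and 5.96 in CD8a+DC. All populations were separate from each other: TZM were above microglia by 2.54 (SE 0.20, adjusted p = 4.4e-05) and above CD8a+DC by 1.21 (adjusted p = 0.003), and microglia were below CD8a+DC at -1.33 (adjusted p = 0.0014). Slc12a2 encodes NKCC1, the cotransporter of sodium, potassium and chloride, which salivary glands also use for secretion. It was at 9.15, 8.81 and 9.15 in TZM, 9.64, 9.18 and 9.38 in microglia, and 7.72, 7.55 and 7.48 in CD8a+DC. TZM replicate 2, the array with the highest salivary gland sum, held the lowest TZM value of Slc12a2, as for 51 of the 81 members. Microglia replicate 2, the microglia array with the lowest choroid plexus sum (26.9), held the lowest microglia value, as for 32 of the 81 members. The part of salivary gland RNA in the Slc12a2 levels of TZM was not tested, nor was that of choroid plexus RNA in those of microglia. Both macrophage populations were above CD8a+DC, TZM by 1.45 (adjusted p = 0.00011) and microglia by 1.81 (adjusted p = 1.9e-05).

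Of 3 exchangers of sodium or potassium for protons in the Golgi and endosomes, 2 were called lower in TZM than in CD8a+DC. Slc9a7, for NHE7, was at 6.27, 6.33 and 6.63 in TZM, 6.92, 7.08 and 7.0 in microglia, and 8.76, 8.53 and 8.62 in CD8a+DC. The 3 populations did not overlap, and against CD8a+DC the log2 fold changes were -2.23 for TZM (SE 0.11, adjusted p = 1.6e-06) and -1.64 for microglia (adjusted p = 7.5e-06). Slc9a9, for NHE9, was at 8.13, 7.84 and 8.14 in TZM, 9.45, 9.35 and 9.41 in microglia, and 9.22, 9.06 and 9.20 in CD8a+DC. TZM were lower than microglia at -1.37 (adjusted p = 1.5e-05) and than CD8a+DC at -1.12 (adjusted p = 4.3e-05). The other gene of this family, Slc9a8, had log2 fold changes from -0.44 to 0.05 and was not called. Likewise not called were the sodium-calcium exchanger gene Slc8a1, at 6.91 ± 0.26, 7.22 ± 0.02 and 6.31 ± 0.14 in TZM, microglia and CD8a+DC, and the sulfate transporter gene Slc26a2, at 7.57 ± 0.26, 6.98 ± 0.25 and 6.99 ± 0.20.

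Metal and heme carriers numbered 11, of which 2 were higher and 1 lower in TZM than in CD8a+DC, 2 higher in TZM than in microglia, and 1 lower in microglia than in CD8a+DC. Slc30a1 encodes ZnT1, which removes zinc from the cytosol and is induced by zinc. It was at 8.68, 8.54 and 8.51 in TZM, 6.90, 7.14 and 7.20 in microglia, and 6.80, 6.61 and 6.98 in CD8a+DC. TZM stood apart, by 1.49 over microglia (SE 0.11, adjusted p = 3.3e-05) and 1.78 over CD8a+DC (SE 0.11, adjusted p = 9.2e-06). Metallothioneins bind zinc and, like Slc30a1, are switched on by the zinc sensor MTF1. Mt1 was called higher than in CD8a+DC both in TZM, by 1.43, and in microglia, by 1.46, and Mt2 in TZM, by 2.28, while Mtf1 had means of 7.61 in TZM, 7.42 in microglia and 7.63 in CD8a+DC.

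Slc48a1 encodes HRG1, which releases heme from the phagolysosome in macrophages that digest red cells. It was at 8.15, 7.05 and 8.39 in TZM, 6.64, 6.57 and 6.81 in microglia, and 6.65, 6.98 and 6.86 in CD8a+DC. Every TZM array was above all others, but TZM replicate 2 only barely so. The log2 fold change of TZM was 1.03 against CD8a+DC (SE 0.30, adjusted p = 0.045) and 1.19 against microglia (SE 0.30, adjusted p = 0.025). The first call ended under 13 of 18 alternatives, which gave 0.77 to 1.44, and the second under 6 of 18, which gave 0.93 to 1.60. Without TZM replicate 2 both calls held, at 1.44 and 1.60. Heme oxygenase, encoded by Hmox1, breaks heme down and was higher in TZM than in CD8a+DC by 2.57 and in microglia by 1.88. The magnesium transporter gene Slc41a1 was lower in both macrophage populations, at 6.29 ± 0.24 in TZM, 5.96 ± 0.33 in microglia and 7.63 ± 0.23 in CD8a+DC, with log2 fold changes of -1.34 (adjusted p = 0.0013) and -1.67 (adjusted p = 0.00027) against CD8a+DC.

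The other 8 metal carriers were not called in any comparison. The zinc importer gene Slc39a1 averaged 9.09 ± 0.33 in TZM, 9.08 ± 0.13 in microglia and 8.65 ± 0.09 in CD8a+DC. The zinc carrier genes Slc39a7, Slc39a10 and Slc39a13 had log2 fold changes from -0.51 to 0.85 over the comparisons, and Slc30a7 and Slc30a9 from -0.80 to 0.75. The copper importer gene Slc31a1 averaged 7.80 ± 0.09 in TZM, 7.44 ± 0.14 in microglia and 7.09 ± 0.21 in CD8a+DC, and its relative Slc31a2 8.06 ± 0.43, 7.80 ± 0.13 and 7.73 ± 0.35.

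**Figure D4:**
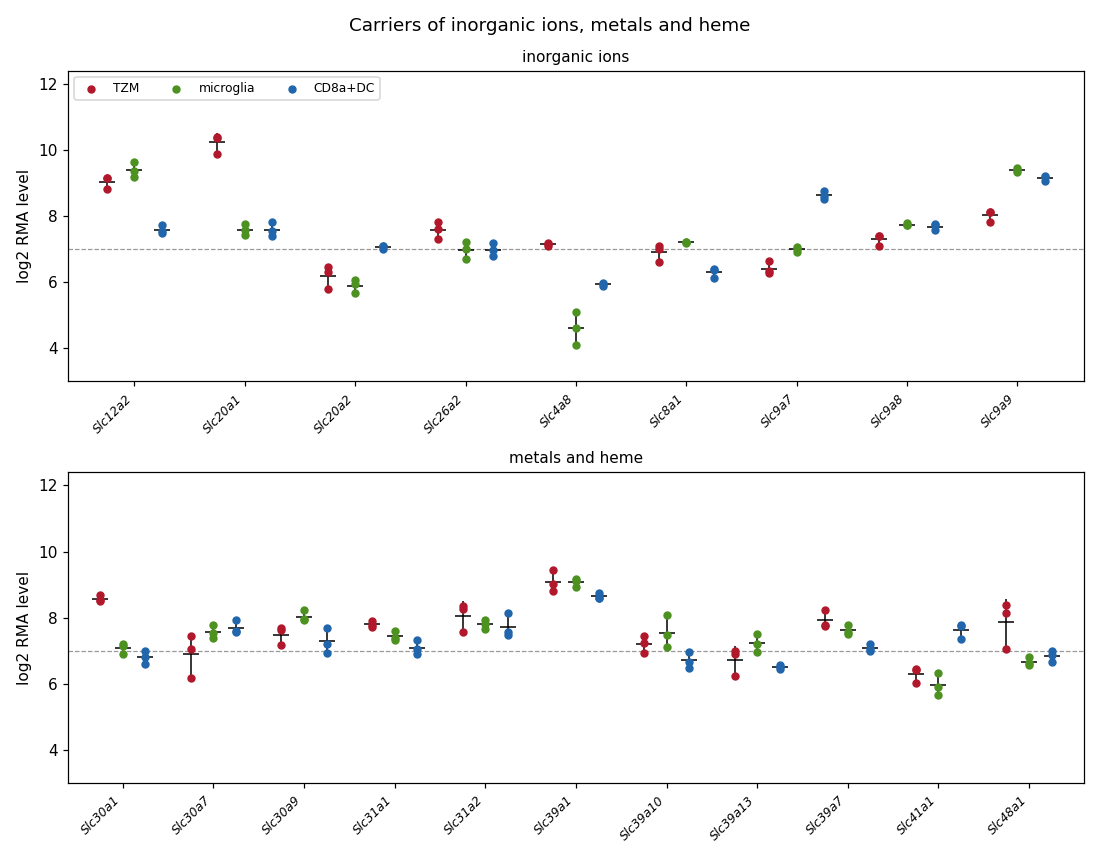
Log2 RMA levels (vertical axis) in each TZM, microglia and CD8a+DC array, with black means and SD bars (n = 3) and a dashed line at 7, for carriers of inorganic ions (top) and of metals and heme (bottom). TZM lie above both other populations for Slc20a1, Slc4a8 and Slc30a1, and CD8a+DC for Slc9a7 and Slc41a1, and the 8 zinc and copper carriers other than Slc30a1 were not called.

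Of 16 mitochondrial carriers, 12 were not called between TZM and microglia, and 14 were not called against CD8a+DC in TZM, and likewise in microglia. The ADP/ATP carrier gene Slc25a5 was at 10.71 ± 0.17 in TZM, 10.30 ± 0.10 in microglia and 10.34 ± 0.14 in CD8a+DC, and the phosphate carrier gene Slc25a3 at 9.33 ± 0.26, 8.98 ± 0.14 and 9.80 ± 0.13. The other ADP/ATP carrier gene, Slc25a4, averaged 8.75 ± 0.23 in TZM, 8.24 ± 0.27 in microglia and 8.94 ± 0.11 in CD8a+DC. None of these was called.

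Slc25a20 encodes the carnitine-acylcarnitine translocase, through which long-chain fatty acids enter the mitochondrial matrix for oxidation. It was at 5.72, 5.15 and 6.08 in TZM, 5.71, 5.88 and 5.99 in microglia, and 8.46, 7.88 and 8.52 in CD8a+DC. Both macrophage populations were far below CD8a+DC, at -2.64 for TZM (SE 0.25, adjusted p = 9.6e-05) and -2.43 for microglia (SE 0.25, adjusted p = 0.00012), and they overlapped with each other. Slc25a37, for the iron importer mitoferrin 1, was at 5.62, 6.05 and 6.07 in TZM, 7.36, 7.58 and 7.05 in microglia, and 4.83, 5.07 and 5.24 in CD8a+DC. Microglia were higher than CD8a+DC by 2.28 (adjusted p = 2.0e-05) and TZM lower than microglia at -1.42 (adjusted p = 0.00059). The difference of 0.87 between TZM and CD8a+DC was not called, but reached 1.01 without TZM replicate 1 (adjusted p = 0.0056). The summed log2 level of 3 red cell genes was 13.4 to 13.9 in TZM, 13.2 to 13.7 in microglia and 14 to 14.4 in CD8a+DC.

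Higher in TZM were Slc25a35, whose substrate is not settled, and the dicarboxylate carrier gene Slc25a10. Slc25a35 was at 7.58, 7.49 and 7.84 in TZM, 5.49, 5.38 and 4.88 in microglia, and 6.06, 6.40 and 6.06 in CD8a+DC, which puts TZM above microglia by 2.39 (adjusted p = 2.5e-05) and above CD8a+DC by 1.47 (adjusted p = 0.00041). Microglia against CD8a+DC stood at -0.92 (adjusted p = 0.0044), and at -1.04 without microglia replicate 1, past the minimum. Slc25a10 averaged 7.09 ± 0.14 in TZM, 5.75 ± 0.05 in microglia and 6.49 ± 0.19 in CD8a+DC, and was called higher in TZM than in microglia by 1.34 (adjusted p = 4.6e-05). The citrate carrier gene Slc25a1, which supplies the cytosol with carbon for lipid synthesis, had a difference of 0.94 in the same comparison (adjusted p = 0.0084), not called. Slc25a45 was lower in TZM than in microglia at -1.12 (adjusted p = 0.0061), with means of 6.97 ± 0.30 and 8.09 ± 0.07. The remaining 7 carriers had log2 fold changes between -0.82 and 0.88. Among them were the aspartate-glutamate carrier gene Slc25a12 (-0.82 for TZM against CD8a+DC, adjusted p = 0.00013), the oxoglutarate carrier gene Slc25a11 (-0.71), the NAD carrier gene Slc25a51 (0.88), the pyrimidine nucleotide carrier gene Slc25a36 (0.54) and the glutathione carrier gene Slc25a39 (0.03). Slc25a46, an outer membrane protein of mitochondrial fission, had log2 fold changes from -0.13 to -0.06 over the comparisons, and Slc25a17, a peroxisomal relative, from -0.30 to 0.09.

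The lipid class was small and held no fatty acid transporter. Slc44a1 and Slc44a2 encode choline transporters, which supply the head group of phosphatidylcholine, and Slc33a1 brings acetyl-CoA into the endoplasmic reticulum. Slc44a1 averaged 7.77 ± 0.42 in TZM, 7.99 ± 0.40 in microglia and 8.83 ± 0.27 in CD8a+DC, and Slc33a1 6.26 ± 0.35, 6.43 ± 0.07 and 7.32 ± 0.12. Both were called lower in TZM than in CD8a+DC at -1.06 (adjusted p = 0.021 for Slc44a1 and 0.0015 for Slc33a1). Both calls ended without TZM replicate 3 (-0.84 and -0.86) and without CD8a+DC replicate 1, and that of Slc44a1 also with the mean of its probe sets (-0.76), since its dimmer probe set gave -0.46. The Slc44a1 difference of -0.84 between microglia and CD8a+DC was not called, but was without microglia replicate 2 (-1.06, adjusted p = 0.021). Slc44a2 averaged 8.47 ± 0.16 in TZM, 8.82 ± 0.24 in microglia and 7.93 ± 0.05 in CD8a+DC and was not called.

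Of 7 members placed in no substrate class, 4 were higher in TZM than in CD8a+DC, 4 were higher and 2 lower in TZM than in microglia, and 3 were higher in microglia than in CD8a+DC. Slc16a9, a relative of the monocarboxylate carriers, was at 8.04, 8.34 and 7.89 in TZM, 5.42, 6.14 and 5.64 in microglia, and 4.95, 5.19 and 5.11 in CD8a+DC. TZM stood apart, by 2.36 over microglia (SE 0.19, adjusted p = 4.0e-05) and 3.01 over CD8a+DC (SE 0.19, adjusted p = 7.3e-06). Its dimmer probe set, at 3.57 in TZM, 3.10 in microglia and 3.15 in CD8a+DC, differed by 0.47 and 0.42. Slc49a4, for a lysosomal membrane protein, was at 9.44, 9.03 and 9.47 in TZM, 8.22 in each microglia array, and 6.62, 5.86 and 6.44 in CD8a+DC. The populations were in that order, with TZM above microglia by 1.09 (adjusted p = 0.0042) and above CD8a+DC by 3.00 (adjusted p = 9.1e-06), and microglia above CD8a+DC by 1.91 (adjusted p = 0.00011). Slc45a4 was at 8.69, 8.12 and 8.77 in TZM, 6.84 in each microglia array, and 6.26, 5.86 and 6.15 in CD8a+DC, with TZM higher by 1.69 (adjusted p = 0.00018) and 2.44 (adjusted p = 1.6e-05). For Slc49a4 and Slc45a4 the deposited values of the 3 microglia arrays were identical, so their spread there is not informative.

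Slc38a6 stood in the same order, with means of 7.48 ± 0.24 in TZM, 6.40 ± 0.19 in microglia and 4.99 ± 0.43 in CD8a+DC. TZM were above microglia by 1.08 (adjusted p = 0.0084; 0.97 without microglia replicate 2, under the minimum) and above CD8a+DC by 2.48 (adjusted p = 6.4e-05). In the other direction, Slc16a6 averaged 8.0 ± 0.11 in TZM, 9.41 ± 0.08 in microglia and 8.27 ± 0.02 in CD8a+DC, with TZM lower than microglia at -1.41 (adjusted p = 3.2e-06) and microglia higher than CD8a+DC by 1.14 (adjusted p = 6.5e-06). Slc12a9 was lower in TZM than in microglia at -1.01 (adjusted p = 0.00024), a call that ended without TZM replicate 1 or 2 and without microglia replicate 1 or 2 (-0.94 at the least). Slc38a10 was not called, with log2 fold changes of 0.23 to 0.60. Finally, 2 members carry a solute carrier symbol but are no carriers: Slc9a3r1, for the scaffold NHERF1, and Slc7a6os, named for its place opposite Slc7a6. Neither was called, with log2 fold changes from -0.74 to 0.36.

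**Figure D5:**
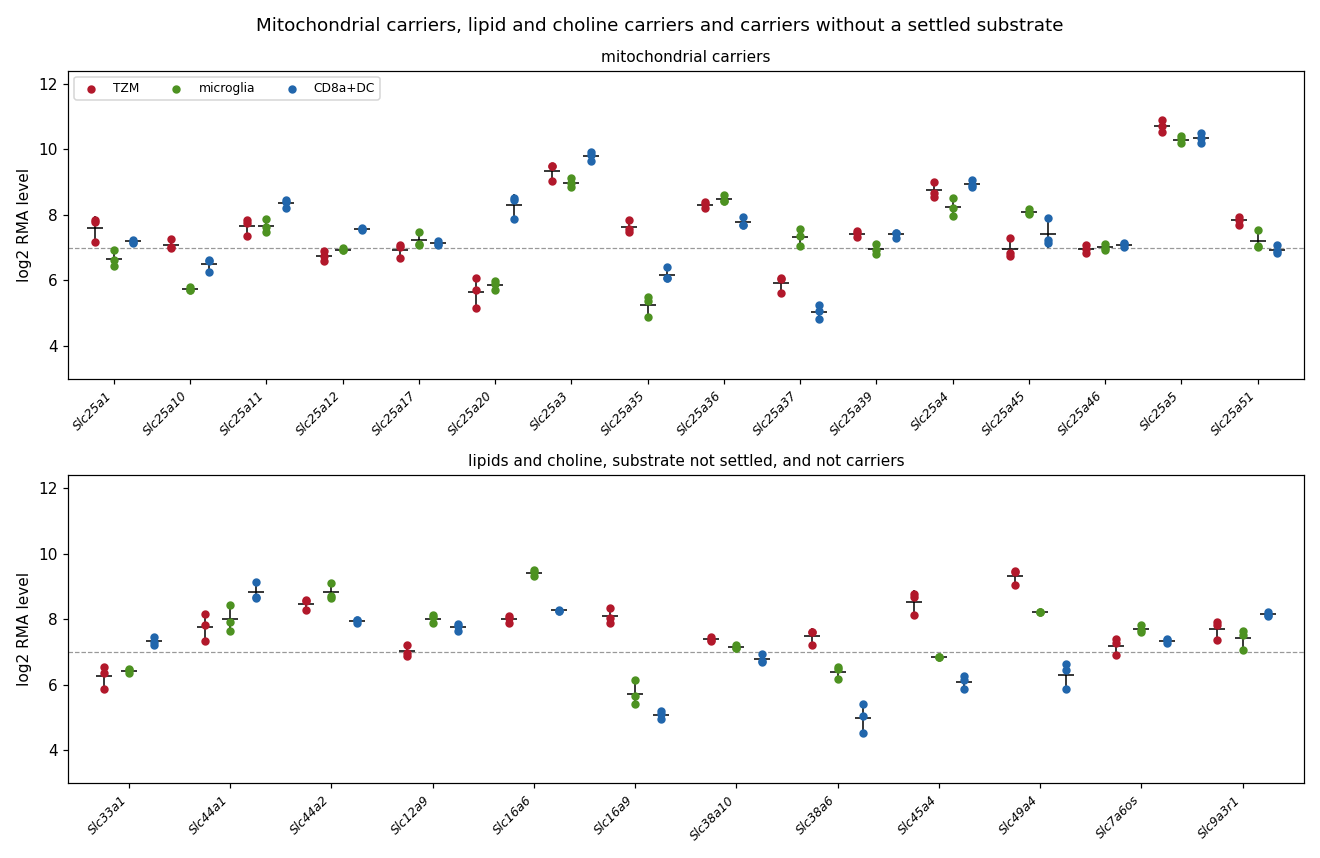
Log2 RMA levels (vertical axis) in each TZM, microglia and CD8a+DC array, with black means and SD bars (n = 3) and a dashed line at 7, for mitochondrial carriers (top) and for lipid and choline carriers, members without a settled substrate and members that are no carriers (bottom). Most mitochondrial carriers lie close together in all populations, Slc25a20 is at 7.88 or more in CD8a+DC and at 6.08 or less elsewhere, and Slc16a9 is at 7.89 or more in TZM and at 6.14 or less elsewhere.

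Genes that work with these carriers were taken from a list of pumps, chaperones, sensors and enzymes, of which 60 of 65 were measured. Among them, 12 were called higher and 6 lower in TZM than in CD8a+DC, 6 higher and 6 lower in TZM than in microglia, and 11 higher and 9 lower in microglia than in CD8a+DC, with medians of 0.06, 0.04 and 0.06. Of 8 organic anion transporters of the Slco family, relatives by function of the solute carriers, Slco2b1 had means of 6.11 in TZM, 10.17 in microglia and 4.59 in CD8a+DC. It was called in all 3 comparisons, at -4.06 for TZM against microglia, 1.52 for TZM against CD8a+DC and 5.59 for microglia against CD8a+DC. Slco3a1 marked CD8a+DC instead, with means of 5.49 in TZM, 5.25 in microglia and 9.17 in CD8a+DC.

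Among 13 genes of lysosomal amino acid sensing, to which Slc38a9 and Slc36a1 feed, Rragd was higher in TZM by 2.24 over microglia and by 1.97 over CD8a+DC. Rptor, for the mTORC1 subunit raptor, was lower in TZM than in microglia at -1.85. Most of the list was not called against CD8a+DC, with 2 higher and 1 lower in TZM and 2 higher and 2 lower in microglia. Of 6 measured enzymes of amino acid and glutathione metabolism, Glul, for glutamine synthetase, was at 11.41 in TZM, 12.10 in microglia and 7.61 in CD8a+DC, called higher than in CD8a+DC by 3.80 in TZM and 4.48 in microglia. Gclc, for the enzyme that starts glutathione synthesis, was lower in TZM than in CD8a+DC at -2.41 and in microglia at -1.43.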

How the data were processed

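RNA of 3 sorted populations was measured on 9 Affymetrix mouse gene arrays, 3 per population. Per the submitters' processing notes, the authors made the deposited log2 values with Affymetrix Expression Console 1.3.1 and RMA, a method that subtracts background, equalizes the arrays and combines the probes of a set. Without detection calls, low levels cannot be told from background, and differences between them are understated. The number of arrays limits the precision.

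The table held 35556 probe sets, with 1 gene symbol for 21789, several for 1621 and none for 12146, by the platform annotation. Symbols and chromosomes were updated by Entrez identifier from RefSeq GRCm38.p6 for 21698 of the first. The probe set with the highest mean over all arrays stood for a gene, which left 19938 genes. Symbols without a probe set of their own were not analysed here.

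All 9 arrays were fitted with limma 3.58.1 in R 4.3.3 (lmFit, eBayes, population as the only term), and p-values were Benjamini-Hochberg adjusted over all genes. Standard errors come from this fit, which was tested on simulated data. Members, substrate classes, companion genes and markers were chosen with earlier results of these data known. Members named with full statistics were up to 4 called genes per substrate class, comparison and direction, the 8 brightest per population, those next to the threshold and 44 fixed genes, of which 32 were members. The other members are given to complete their class. Alternatives concerned the fold minimum, a level filter, scaling, probe set choice, the arrays in the fit, eBayes settings, a replicate block, each array left out and the level of membership.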

Additional observations from a re-analysis of the deposited data

How the results depend on the processing

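Of 86 called values of named members, 75 kept their call under every alternative that was run, 11 lost it under at least 1, and 0 changed sign. Those 11 are given beside their genes in the report. Of the 132 counts of called members under alternatives, 11 moved by more than 1.5 times. Without a minimum fold change, 40 members were higher and 17 lower in TZM than in CD8a+DC, 23 were higher in TZM than in microglia, and 34 were higher and 22 lower in microglia than in CD8a+DC. With membership by a mean over all arrays of 7 or more, which leaves 55 genes, the counts were 15 and 4 for TZM against CD8a+DC, 6 higher in TZM than in microglia, and 12 and 1 for microglia against CD8a+DC. With membership at 7.5 or more, which leaves 60 genes, 4 were lower in microglia than in CD8a+DC. Without the minimum smaller differences count, and a different membership changes which genes are counted as well as how many. For microglia against CD8a+DC, 9.88% of the 81 members were called lower, and 1.82% of the 55 genes. With 1 array left out, the counts were 24 to 27 higher and 6 to 10 lower for TZM against CD8a+DC, 11 to 15 and 8 to 11 for TZM against microglia, and 20 to 22 and 7 to 8 for microglia against CD8a+DC.

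The arrays gave no sign of pairing by replicate number: deviations of the 9 same-numbered pairs correlated at -0.15 to 0.13. That does not exclude a shared sort or shared mice. With the replicate block, 25 members were higher and 8 lower in TZM than in CD8a+DC, 13 higher and 10 lower in TZM than in microglia, and 21 higher and 8 lower in microglia than in CD8a+DC. Signal near the low end of the scale limits what can be said of low levels, such as Slc2a5 outside microglia.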
